A study of Mus musculus with 9 samples.

Results

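The striatum of mice lacking STING was compared with the striatum of mice lacking cGAS, in 3 libraries of each, out of the 9 libraries of the series. Members were chosen by their titles alone: STING KO replicates 1 to 3 against cGAS KO replicates 1 to 3, with fold changes given as STING KO minus cGAS KO. Both knockout lines were made with CRISPR-Cas9 on a C57BL/6J background, and the series design places the brains after ischemic stroke. The other 3 libraries came from wild-type (WT) striatum and were not part of the contrast. They entered the fits for the estimate of the spread, the choice of genes tested and the scaling of the libraries. The sources used here give no age, sex, time after the stroke, edited exon or number of founder lines, and uninjured tissue was not analysed here. Polyadenylated RNA was sequenced in each library. Whether each replicate is its own animal is not in the labels. The p-values therefore reflect only how far libraries of a group differ, and that spread may be technical.

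cGAS is an enzyme that binds DNA in the cytosol and makes the cyclic dinucleotide cGAMP. STING is the receptor in the endoplasmic reticulum membrane that cGAMP activates. STING then recruits the kinase TBK1, which activates IRF3 and leads to transcription of type I interferon, while a parallel branch activates NF-kB. In the brain the pathway is best known from microglia. A comparison of the knockouts asks whether losing the sensor and losing the receptor leave the same transcriptome, since STING can also be reached by other routes and cGAS has roles outside this pathway.

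Library totals ranged from 14129021 to 17110867 counts in the 6 knockout libraries and up to 21286775 in WT. In cGAS KO replicate 2 and STING KO replicate 2 only 4723 and 2280 genes had 1 to 9 counts, against 7096 to 7880 in the other 4 knockout libraries. WT replicate 3 shared this property with 4699 such genes, against 7663 and 7927 in the other WT libraries. Tests were therefore run over all 9 libraries and over the 6 that remain without these 3, where each group has 2 libraries. The biological coefficient of variation was 38.8% over 9 libraries and 17.2% over 6. All 23 markers of medium spiny neurons, the projection neurons of the striatum, had counts in every library. Their summed level was 13700 to 17040 CPM in the knockout libraries, where CPM is a count divided by the TMM-scaled library total. In WT it was 15670, 14410 and 8084 CPM, so WT replicate 3, which enters the 9-library fit, held the least of all libraries.

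The targeted genes gave only a weak check of the labels. Cgas lies on the minus strand of chromosome 9 (GRCm38, 78430526 to 78443237), and its level was 1.10, 0.377 and 0.262 CPM in cGAS KO, beside 1.55, 1.05 and 1.45 CPM in STING KO. One cGAS KO library thus lay above the lowest STING KO library, and the log2 fold change was 1.19 (SE 0.63) over 9 libraries and 1.10 (SE 0.63) over 6. It depended on single libraries: without cGAS KO replicate 1 it was 2.06 over 9 and 2.49 over 6, and without cGAS KO replicate 3 it was 0.44 over 6. Sting1 lies on the minus strand of chromosome 18 (35733679 to 35740554), and its level was 2.67, 1.66 and 2.75 CPM in cGAS KO, beside 2.18, 1.05 and 1.85 CPM in STING KO. The groups overlapped, with a log2 fold change of -0.48 (SE 0.51) over 9 libraries and -0.43 (SE 0.32) over 6. A CRISPR-Cas9 edit can leave the transcript in place, so these levels check the label of STING KO only weakly. For Cgas every WT library lay above every cGAS KO library, at up to 3.18 CPM, and WT overlapped only STING KO. For Sting1 the WT libraries, at up to 4.06 CPM, overlapped both knockouts. WT replicate 3 held less Sting1 (1.34 CPM) than every cGAS KO library.

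Few transcripts were called different between the 2 knockouts by edgeR over 9 or over 6 libraries, which does not show the others to be alike. The differences that stood out were of 2 kinds. Transcripts of immediate early and activity-regulated genes, which cells make soon after stimulation, were on average at a higher level in STING KO replicates 1 and 3 but not in replicate 2. Their mean log2 CPM was 4.19 to 4.45 in cGAS KO and 5.04, 3.94 and 4.90 in STING KO replicates 1 to 3. Of these genes edgeR called only Arc, and only over 6 libraries. A short stretch of mitochondrial transcripts around mt-Nd3 was counted lower in STING KO and a nuclear copy of it higher. Over 9 libraries, edgeR's quasi-likelihood test called 0 of 17821 genes after Benjamini-Hochberg adjustment (0%), with 258 genes at an unadjusted p under 0.05. Of these 258, 147 were higher in STING KO (0.825% of genes tested) and 111 lower (0.623%). DESeq2 called 8 genes over 9 libraries (0.0251%), and limma-voom called 0.

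Over the 6 libraries edgeR called 3 of 17657 genes (0.0170%). Arc and Gm28438 were counted higher in STING KO and mt-Nd3 lower, each with an edgeR adjusted p = 0.0327. At an unadjusted p under 0.05, 352 genes were higher (1.99%) and 301 lower (1.70%). DESeq2 called 21 genes over these libraries (0.0675%), 15 higher and 6 lower. With 2 libraries a group the calls rested on single libraries: edgeR called 0 genes without STING KO replicate 1, 0 without STING KO replicate 3, 10 without cGAS KO replicate 3 and 751 without cGAS KO replicate 1. In these fits the lone library left in a group is assumed to vary like the other groups. Without the 2 WT libraries it called 0.

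**Figure D1:**
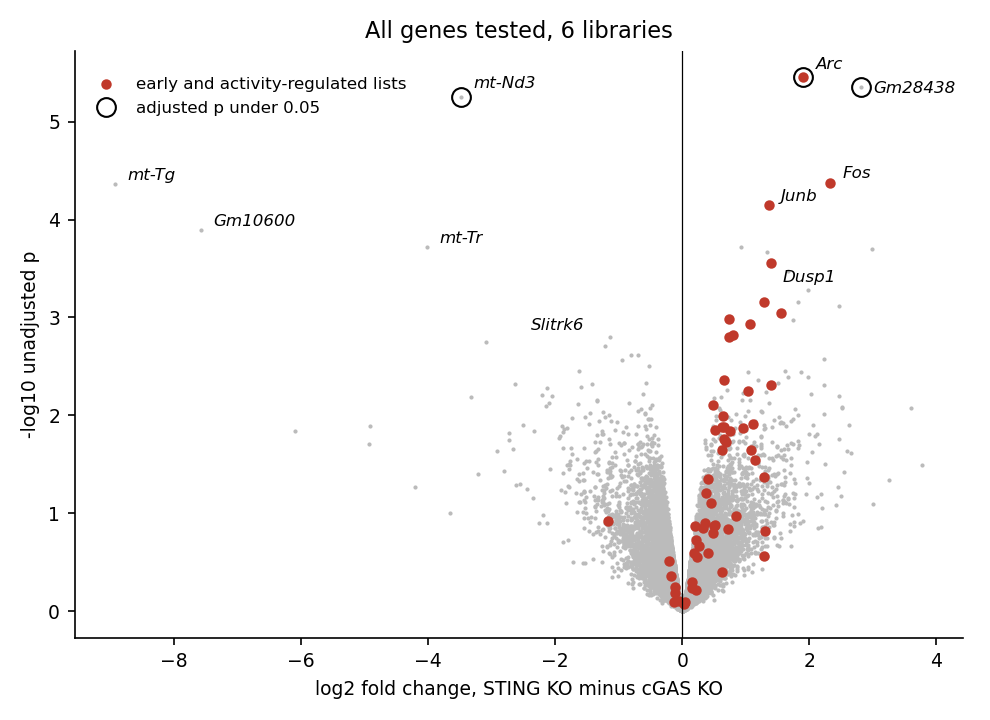
Log2 fold change (STING KO minus cGAS KO, x axis) against -log10 of the unadjusted edgeR p (y axis) for the 17657 genes tested over 6 libraries, with 1 point a gene. Red points are the 60 genes of the early and activity-regulated lists, 53 of them to the right of 0, and rings mark the 3 genes with an adjusted p under 0.05. The plotted fold changes of mt-Tg and Gm10600, at 0 counts in STING KO, depend on the prior count and are no measure of size.

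Immediate early genes are switched on by calcium and kinase signals that act on transcription factors already present in the cell, chiefly CREB, which binds the cAMP response element (CRE), and SRF. Their products are mostly transcription factors, such as the AP-1 subunits of the Fos and Jun families, and feedback inhibitors such as the Dusp phosphatases. In the striatum they mark neurons recently driven by dopamine or glutamate. Promoters of 4 members that lead the difference are shown because they carry CRE letters. Each run is the 250 bases before the start site on GRCm38.p6, from RefSeq, 5′ to 3′ on the gene's strand. Capitals mark the CRE half-site TGACG on either strand (CGTCA on the other), also where 2 overlap in the full CRE TGACGTCA. Fos is read from chr12:85473640-85473889 (plus strand), Junb from chr8:84978749-84978998 (minus), Nr4a1 from chr15:101266596-101266845 (plus) and Dusp1 from chr17:26508473-26508722 (minus).
Fos: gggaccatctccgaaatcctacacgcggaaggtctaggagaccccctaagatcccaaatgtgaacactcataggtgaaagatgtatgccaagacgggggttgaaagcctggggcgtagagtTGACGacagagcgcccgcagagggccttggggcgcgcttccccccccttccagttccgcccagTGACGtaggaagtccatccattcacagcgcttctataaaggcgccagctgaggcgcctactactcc
Junb: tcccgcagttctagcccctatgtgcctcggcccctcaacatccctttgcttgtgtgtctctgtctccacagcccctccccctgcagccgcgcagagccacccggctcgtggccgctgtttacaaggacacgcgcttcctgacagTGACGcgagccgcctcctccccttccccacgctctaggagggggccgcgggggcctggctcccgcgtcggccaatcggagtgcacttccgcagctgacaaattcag
Nr4a1: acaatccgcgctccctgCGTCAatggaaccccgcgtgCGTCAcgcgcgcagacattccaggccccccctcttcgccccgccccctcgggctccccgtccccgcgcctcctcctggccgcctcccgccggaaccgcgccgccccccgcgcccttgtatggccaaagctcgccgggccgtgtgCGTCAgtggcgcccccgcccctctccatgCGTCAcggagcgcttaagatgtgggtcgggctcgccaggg
Dusp1: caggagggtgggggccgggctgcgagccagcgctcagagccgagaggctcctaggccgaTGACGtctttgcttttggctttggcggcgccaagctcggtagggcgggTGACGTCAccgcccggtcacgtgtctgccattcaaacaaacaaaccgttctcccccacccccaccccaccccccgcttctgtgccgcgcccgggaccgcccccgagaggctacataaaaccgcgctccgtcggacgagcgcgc
Half-sites numbered 2 in Fos, 1 in Junb, 4 in Nr4a1 and 3 in Dusp1. A full CRE was present only in Dusp1 among these 4, with its first base at -143 from the start site. Of the 60 genes on the 3 lists, 46 had a promoter in the RefSeq table, and 30 of these 46 held the half-site within a window of 250 bases before to 50 after the start. Among 27025 genes with a promoter, 23% held it. The full CRE was in 7 of the 46 and in 2.03% of all promoters. The CArG box bound by SRF was in 3 of the 46 and in 1.81% of all, and the AP-1 site TGANTCA in 2 of the 46 and in 8.97% of all. The TATA box TATAAA was in 10 of the 46 and in 15.7% of all. Fosl2, Dusp6 and Jun held no half-site in this window. Rgs4 and Homer1 held it, at log2 fold changes of -0.03 and -0.02 over 9 libraries. Whether the half-site goes with the size of the difference was not tested. A match of letters describes the sequence and does not show binding.

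Among the AP-1 subunits, all 9 genes tested had a positive fold change in both fits, with a median log2 fold change of 0.60 over 9 libraries and 0.63 over 6. The median over all genes tested was 0.01 and 0.00. No AP-1 subunit was called by edgeR in either fit. At an unadjusted p under 0.05, 2 were higher over 9 libraries, beside 0.825% of genes tested, and 4 over 6, beside 1.99%. Fos was at 8.30, 5.43 and 6.62 CPM in cGAS KO and at 46.8, 13.2 and 28.1 CPM in STING KO. Each STING KO library lay above each cGAS KO library, and the WT libraries, at 5.24, 7.84 and 7.07 CPM, were all below the lowest of them. The log2 fold change of Fos was 2.11 (SE 0.42) over 9 libraries (edgeR adjusted p = 1) and 2.32 (SE 0.30) over 6 (edgeR adjusted p = 0.153). DESeq2 called Fos in both fits, with an adjusted p = 0.00553 over 9 libraries and 3.50e-10 over 6, and over all settings tried its adjusted p ran from 5.18e-19 to 1.

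Fosl2 encodes a later Fos-family partner of Jun. It was at 33.4, 45.7 and 42.1 CPM in cGAS KO and at 64.4, 56.3 and 63.0 CPM in STING KO. The groups did not overlap, and all WT libraries were lower than both, at 14.9 to 26.7 CPM. The log2 fold change was 0.60 (SE 0.24) over 9 libraries and 0.76 (SE 0.25) over 6. Junb, a Jun-family subunit, was at 58.0, 54.7 and 50.2 CPM in cGAS KO and at 159, 31.1 and 119 CPM in STING KO. STING KO replicates 1 and 3 were above every cGAS KO library and STING KO replicate 2 below them all. Its log2 fold change was 0.93 (SE 0.51) over 9 libraries and 1.36 (SE 0.19) over 6, where edgeR gave an adjusted p = 0.211. Fosb, at 10.6 ± 4.17 CPM in cGAS KO against 20.1 ± 12.6 CPM in STING KO (SD, n = 3), had the same order of libraries within STING KO as Junb, with replicate 2 lowest. Jun, at 26.0 ± 5.62 and 33.2 ± 10.6 CPM, overlapped between the groups.

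The second list held 21 early regulators other than AP-1, and all 21 had a positive fold change in both fits. Their median log2 fold change was 0.41 over 9 libraries and 0.64 over 6, and edgeR called none in either. At an unadjusted p under 0.05, 5 of them were higher over 9 libraries, beside 0.825% of genes tested, and 12 over 6, beside 1.99%. Egr1, a zinc-finger factor whose gene lies within 1 Mb of Sting1 on chromosome 18, was at 316, 328 and 408 CPM in cGAS KO and at 544, 294 and 585 CPM in STING KO. Replicate 2 was again the low STING KO library, below every cGAS KO value. Egr3, which acts downstream of neuronal activity in the striatum, was at 167.4, 170.6 and 196.7 CPM in cGAS KO and at 266.8, 196.5 and 245.6 CPM in STING KO. Its groups overlapped only at STING KO replicate 2 and cGAS KO replicate 3, and its log2 fold change was 0.41 (SE 0.17) over 9 libraries and 0.49 (SE 0.14) over 6.

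Nr4a1, an orphan nuclear receptor induced by activity, was at 92.7, 81.1 and 119 CPM in cGAS KO and at 267, 99.2 and 250 CPM in STING KO. Its log2 fold change was 1.08 (SE 0.36) over 9 libraries and 1.29 (SE 0.25) over 6. Npas4, a factor made almost only by neurons in response to calcium entry, was at 14.2, 8.15 and 25.3 CPM in cGAS KO and at 50.6, 29.3 and 35.6 CPM in STING KO. Its groups did not overlap, but WT replicates 2 and 3, at 26.2 and 26.1 CPM, lay close to the lowest STING KO library. Klf10, a zinc-finger repressor, also did not overlap, at 14.9 to 17.3 CPM in cGAS KO against 18.5 to 27.1 CPM in STING KO, while WT reached from 18.6 to 21.6 CPM. Btg2, an antiproliferative factor, and Egr4 were at 4.45 to 8.30 and 29.0 to 63.2 CPM in cGAS KO. In STING KO replicates 1 and 3 Btg2 was at 26.9 and 14.9 CPM and Egr4 at 129 and 120 CPM, and in replicate 2 both fell within the cGAS KO range or below it, at 5.23 and 26.8 CPM. Nr4a1, Npas4, Klf10, Btg2, Egr4, Fosb, Jun, Spry4, Dusp6, Nptx2, Fezf2, Tbr1, Tap1, Bst2, Ifi27, Irf9, Enpp1, Crb1, Ttr, mt-Tl1 and mt-Nd1, and other genes said to have an unadjusted p under 0.05 in a list, were chosen after their values were seen.

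The third list held 30 effectors and feedback regulators, of which 19 had a positive fold change over 9 libraries (median 0.31) and 23 over 6 (median 0.46). Arc was the only member called, over 6 libraries. Arc (chromosome 15, 74669083 to 74672570, minus strand) encodes a postsynaptic protein that drives removal of AMPA receptors, and its mRNA is carried to active dendrites. It was at 91.8, 77.6 and 80.8 CPM in cGAS KO and at 355, 135 and 289 CPM in STING KO. All 3 STING KO libraries lay above all cGAS KO and WT libraries, the latter at 97.3, 75.8 and 80.3 CPM. The log2 fold change was 1.90 (SE 0.18) over 6 libraries (edgeR adjusted p = 0.0327) and 1.64 (SE 0.31) over 9 (edgeR adjusted p = 1). Arc kept a positive fold change without any 1 knockout library, from 1.74 to 2.04 in the 6-library fits, but its call ended without STING KO replicate 1 or 3.

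Dusp1, a phosphatase that switches off MAP kinases, was at 21.9, 14.6 and 18.01 CPM in cGAS KO and at 65.0, 36.1 and 39.9 CPM in STING KO, with no overlap. Its log2 fold change was 1.37 (SE 0.26) over 9 libraries and 1.39 (SE 0.23) over 6, so that leaving out the replicate 2 libraries made little difference to it. edgeR gave adjusted p-values of 1 and 0.412, while DESeq2 called it in both fits. Dusp6, which acts on ERK, was at 26.8 to 39.3 CPM in cGAS KO and at 69.1, 32.8 and 59.9 CPM in STING KO. Spry4, an inhibitor of receptor tyrosine kinase signalling, did not overlap, but by a small margin, at 7.40 to 11.1 CPM in cGAS KO against 11.9 to 13.7 CPM in STING KO. Nptx2, a secreted protein that clusters AMPA receptors, was at 18.3 to 28.8 CPM in cGAS KO and at 34.9, 15.9 and 38.1 CPM in STING KO. The 2 members with the highest level among the effectors, Rgs4 and Homer1, differed by -0.03 (SE 0.27) and -0.02 (SE 0.29) on the log2 scale over 9 libraries and by -0.11 (SE 0.18) and 0.05 (SE 0.18) over 6.

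Over the 3 lists together, 29 of 60 genes had an unadjusted p under 0.05 and a higher level in STING KO over 6 libraries, beside 1.99% of all genes tested, and 0 a lower level. Over 9 libraries the count was 10 of 60, beside 0.825%. In 7 of the 60, Fos, Fosl2, Klf10, Npas4, Arc, Dusp1 and Spry4, all 3 STING KO libraries lay above all 3 cGAS KO libraries, beside 3.63% of genes tested, and in 0 all lay below, beside 3.72%. STING KO replicate 2 was the lowest STING KO library for 49 of the 60 genes, and for 48.9% of all genes tested. Its mean log2 CPM was 3.01 over the AP-1 subunits, within the 3.01 to 3.51 of the cGAS KO libraries. Over the other early regulators it was 3.94, below the 4.30 to 4.56 of cGAS KO. STING KO replicates 1 and 3 were at 4.41 and 4.12 over the first list and at 5.32 and 5.16 over the second. Without 1 knockout library the medians stayed above 0, from 0.40 to 0.66 over 9 libraries and 0.51 to 0.93 over 6 for AP-1, from 0.26 to 0.74 and 0.56 to 0.83 for the other regulators, and from 0.14 to 0.46 and 0.29 to 0.61 for the effectors. The lists were written with earlier results of these data known, so their direction is a description.

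**Figure D2:**
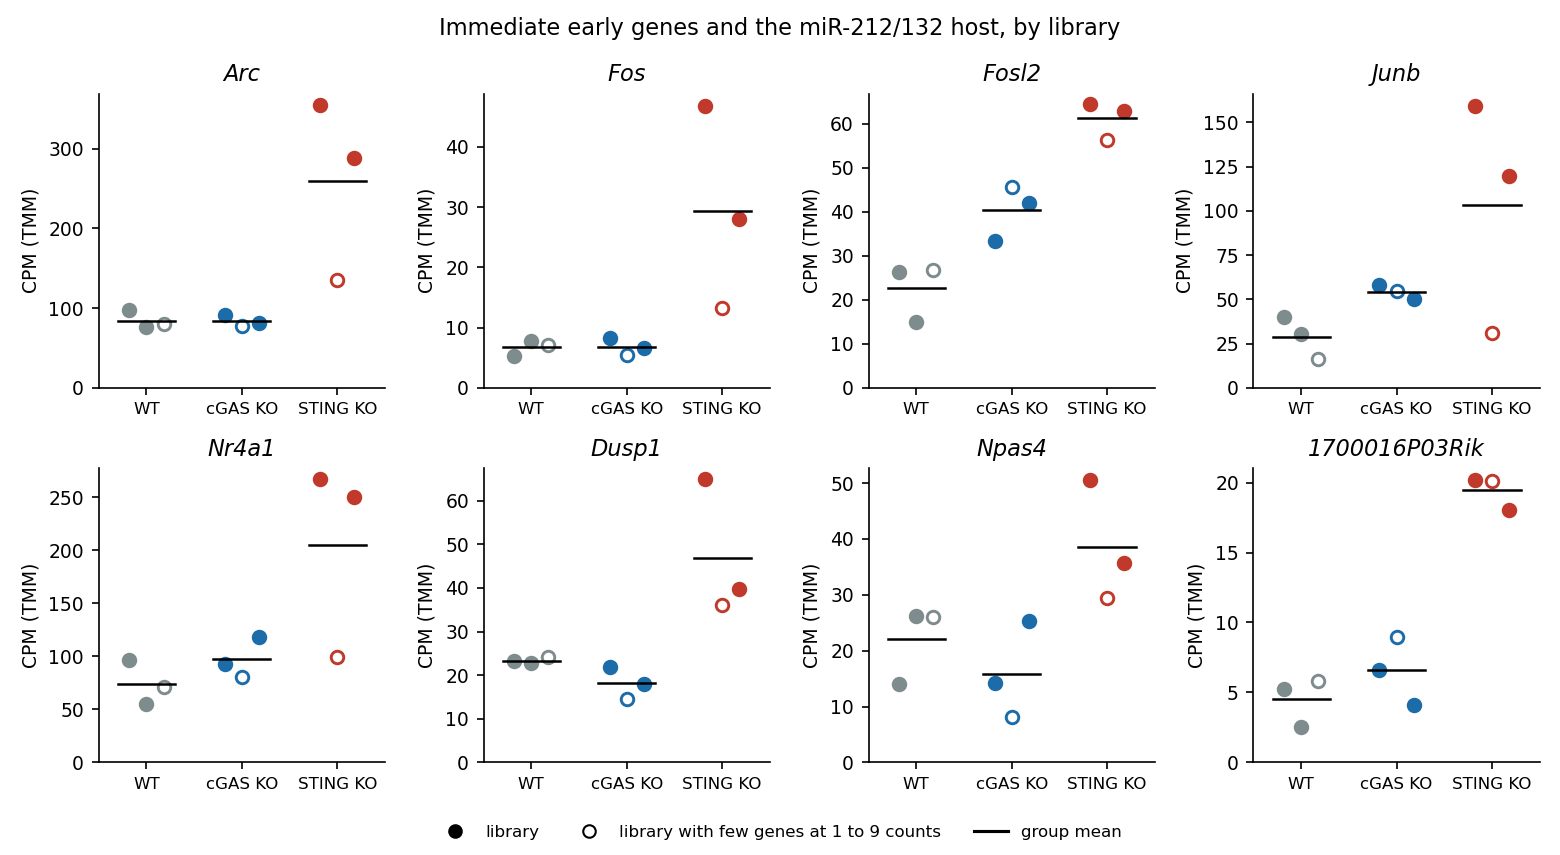
CPM (y axis, TMM-scaled) of 8 transcripts in each library by group, with 1 point a library, open points for the 3 libraries with few genes at 1 to 9 counts, and lines for group means. In Arc, Fos, Fosl2, Dusp1, Npas4 and 1700016P03Rik every STING KO point lies above every cGAS KO point, while in Junb and Nr4a1 the open STING KO point falls below or among them.

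Markers of cortical glutamatergic neurons moved with the early genes in part of the libraries. Of 15 such markers, 12 had a positive fold change over 9 libraries (median 0.51) and 13 over 6 (median 1.37), and 0 were called by edgeR in either fit. The median depended on single libraries. Over 9 libraries it was 0.12 without STING KO replicate 1, 0.13 without cGAS KO replicate 3, 0.87 without STING KO replicate 2 and 1.02 without cGAS KO replicate 2. Over 6 it was 0.73 without cGAS KO replicate 3 and 2.37 without cGAS KO replicate 1. Over 9 libraries 0 had an unadjusted p under 0.05, and over 6 there were 3, all higher (Bhlhe22, Emx1 and Fezf2), beside 1.99% of genes tested. Their summed level was 717, 939 and 502 CPM in cGAS KO against 1117, 681 and 866 CPM in STING KO, and ran from 390 to 2274 CPM in WT. Of the 15, 14 had counts in every library. Slc17a7, the vesicular glutamate transporter of cortical projection neurons, was at 270, 345 and 58.0 CPM in cGAS KO and at 487, 198 and 361 CPM in STING KO. Tbr1, a factor of deep-layer cortical neurons, was at 30.0, 47.5 and 6.81 CPM and at 54.5, 17.3 and 48.0 CPM in the same order. Fezf2, of subcortically projecting neurons, did not overlap, at 1.90 to 5.57 and 6.55 to 10.38 CPM.

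Arc did not follow these markers across all libraries. WT replicate 2, with Slc17a7 at 311 CPM, and WT replicate 3, with 823 CPM, had Arc at 75.8 and 80.3 CPM, and WT replicate 1, with Slc17a7 at 47.3 CPM, had Arc at 97.3 CPM. STING KO replicate 2 had less Slc17a7 than cGAS KO replicates 1 and 2 and more Arc than either. Nr4a2 and Bdnf, also of the early lists and chosen after their values were seen, did go with Slc17a7 in the knockouts. Each was lowest of its group in cGAS KO replicate 3 and STING KO replicate 2. Nr4a2 was at 21.6, 39.2 and 3.54 CPM in cGAS KO and at 37.7, 9.97 and 24.4 CPM in STING KO. Bdnf was at 4.35, 4.38 and 1.05 CPM and at 7.96, 0.906 and 5.53 CPM. Other early genes were not set against these markers. In bulk tissue a change in the number of cells of a type cannot be told apart from a change in RNA per cell. The part of tissue makeup in the higher level of the early genes was not tested.

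Thalamic and septal markers had a median log2 fold change of -0.52 over 10 genes (9 libraries) and -0.86 over 11 genes (6 libraries), where 5 (Gbx2, Prkcd, Tcf7l2, Zic1 and Zic2) were lower at an unadjusted p under 0.05, beside 1.70% of genes tested, and 0 were called by edgeR. Without cGAS KO replicate 1 the median turned to 0.18 over 9 libraries and 0.10 over 6, and without cGAS KO replicate 3 it was -1.49 over 6. DESeq2 called 1 of them, Zic1, over 6 libraries (adjusted p = 0.0481). Zic1, a factor of septal and thalamic neurons, was at 80.5, 23.8 and 30.9 CPM in cGAS KO and at 24.3, 32.2 and 19.8 CPM in STING KO. One library, cGAS KO replicate 1, stood above the others in this gene, and the summed level of the 12 markers was 299 CPM there against 151.5 to 208.3 CPM in the other 5 knockout libraries. Without cGAS KO replicate 1, the fold change of Prkcd, a kinase abundant in thalamus, turned from -1.65 to 0.10 over 6 libraries, and that of Zic1 from -1.34 to -0.49.

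**Figure D3:**
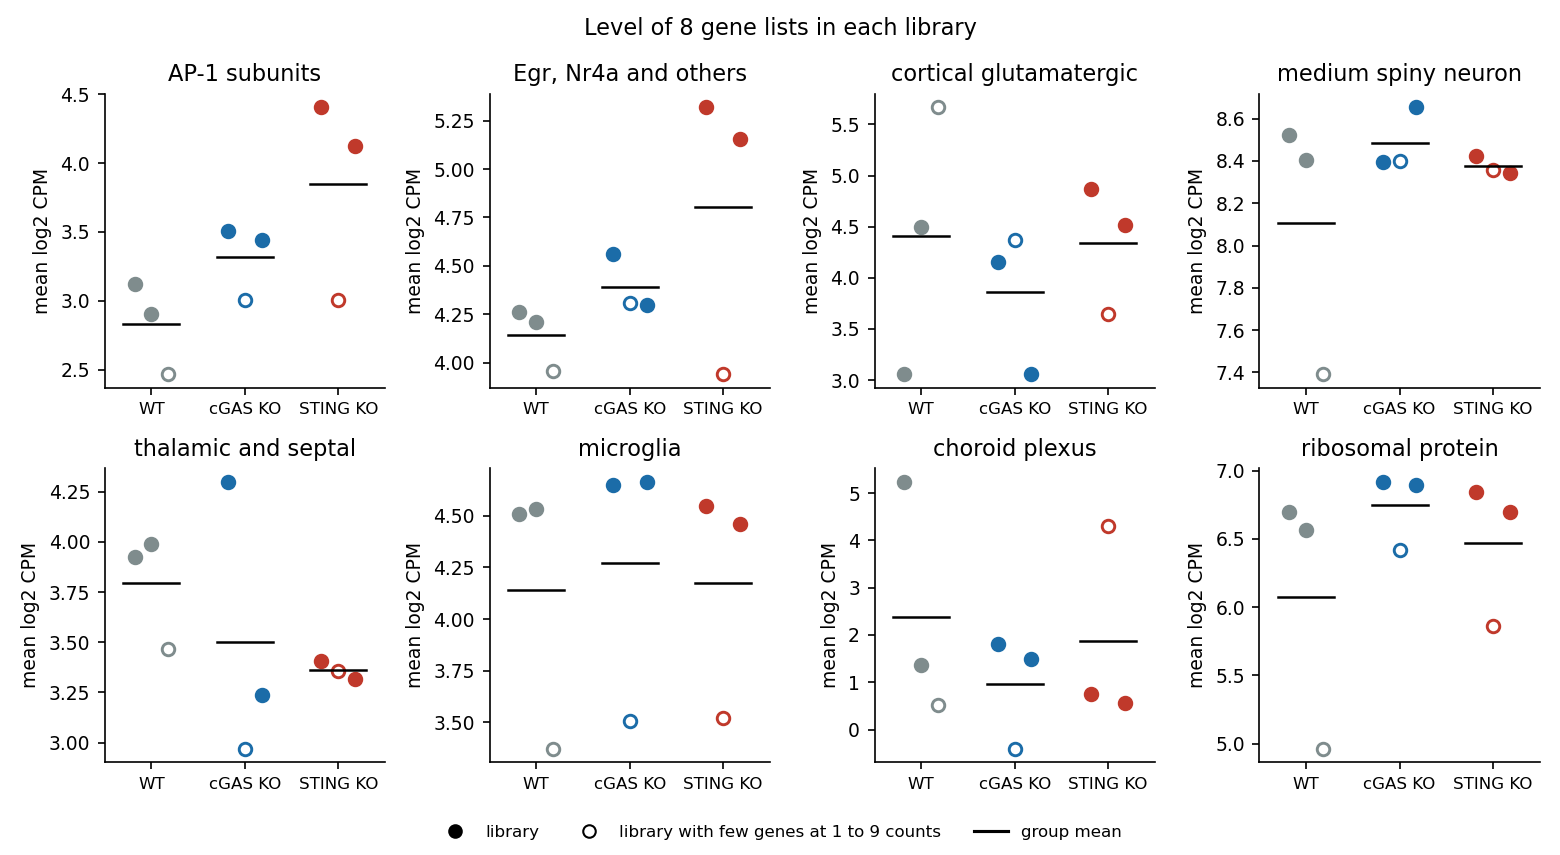
Mean log2 CPM over the tested genes of 8 lists (y axis, scaled to each panel and not starting at 0) in each library by group, with open points for the 3 libraries with few genes at 1 to 9 counts and lines for group means. The filled STING KO points, replicates 1 and 3, are highest in both early gene lists, whereas the cortical markers are highest in WT replicate 3 and the choroid plexus markers in WT replicate 1 and STING KO replicate 2.

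The noncoding host transcript of 2 activity-regulated microRNAs was also at a higher level in STING KO. 1700016P03Rik (chromosome 11, 75172560 to 75177633, plus strand, GRCm38) carries miR-212 and miR-132 in an intron. Both are induced through CREB in neurons, and miR-132 is known for promoting dendrite growth. The mature sequences are shown, 5′ to 3′ from RefSeq on GRCm38.p6, because the 3p arms share their seed (bases 2 to 8, in capitals), the stretch that pairs with targets, while the 5p arms do not. Their positions on the plus strand are chr11:75173403-75173425 for miR-212-5p, chr11:75173443-75173464 for miR-212-3p, chr11:75173686-75173707 for miR-132-5p and chr11:75173723-75173744 for miR-132-3p.
miR-212-3p: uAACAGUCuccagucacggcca
miR-132-3p: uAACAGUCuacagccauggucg
miR-212-5p: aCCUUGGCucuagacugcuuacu
miR-132-5p: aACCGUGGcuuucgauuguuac
The host transcript was at 6.61, 8.98 and 4.13 CPM in cGAS KO and at 20.1, 20.1 and 18.1 CPM in STING KO. WT libraries held 5.24, 2.52 and 5.80 CPM. No STING KO library overlapped another group, and STING KO replicate 2 was as high as replicate 1. The log2 fold change was 1.57 (SE 0.37) over 9 libraries and 1.82 (SE 0.35) over 6, with edgeR adjusted p-values of 1 and 0.775. DESeq2 called it over 6 libraries (adjusted p = 0.00114), and over all settings tried its adjusted p ran from 1.31e-08 to 1. The mature microRNAs themselves are not measured by these libraries.

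The second difference lay in mitochondrial transcripts. mt-Nd3 encodes a subunit of respiratory complex I, and in the mitochondrial genome it stands between mt-Tg and mt-Tr, the tRNA genes for glycine and arginine. Gm28438, on chromosome 1 (24612775 to 24613119, minus strand), is annotated as an unprocessed pseudogene and matches mt-Nd3 at all but 1 of 345 positions. The first 60 bases of both annotated transcripts (GENCODE M21, GRCm38, 5′ to 3′) are shown because they hold that 1 difference, T3C, counted from 1 at the 5′ end with the mitochondrial base first and in capitals. It lies at position 9461 of the mitochondrial genome. The 2 tRNA genes (mt-Tg at M:9391-9458 and mt-Tr at M:9808-9875, both plus strand) are shown whole, since their counts moved with mt-Nd3.
mt-Nd3: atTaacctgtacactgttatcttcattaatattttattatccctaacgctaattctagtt
Gm28438: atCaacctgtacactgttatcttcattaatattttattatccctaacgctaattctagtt
mt-Tg: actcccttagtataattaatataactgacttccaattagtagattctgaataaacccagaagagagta
mt-Tr: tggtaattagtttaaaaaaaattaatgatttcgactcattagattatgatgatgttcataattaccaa
mt-Nd3 was at 33.5, 41.9 and 68.7 CPM in cGAS KO and at 5.22, 1.74 and 3.97 CPM in STING KO, with no overlap. Its log2 fold change was -3.48 (SE 0.35) over 6 libraries (edgeR adjusted p = 0.0327) and -3.71 (SE 0.53) over 9 (edgeR adjusted p = 0.767). Gm28438 went the other way, at 3.36, 2.34 and 5.83 CPM in cGAS KO and at 32.3, 44.0 and 31.9 CPM in STING KO, a log2 fold change of 2.81 (SE 0.27) over 6 libraries and 3.22 (SE 0.63) over 9. Both calls ended without STING KO replicate 1 or 3, where the fold changes were -3.68 and -3.29 for mt-Nd3 and 2.80 and 2.81 for Gm28438.

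Summed over mt-Nd3 and its copy, the level was 36.9, 44.2 and 74.5 CPM in cGAS KO and 37.5, 45.7 and 35.8 CPM in STING KO. The summed levels thus overlapped, and what differed was how the counts were divided between the 2 entries. Of the counts of mt-Nd3 and its copy together, the copy took 9.12%, 5.29% and 7.82% in cGAS KO. It took 86.1%, 96.2% and 88.9% in STING KO, with 9.07%, 9.84% and 3.67% in WT. The shares thus did not overlap, with or without replicate 2. A two-sided exact permutation test gave p = 0.1, the smallest that 3 against 3 allows. Any groups of this size without overlap give that value, so the test adds nothing to the lack of overlap. mt-Tg had 40, 51 and 69 counts in cGAS KO and 0 in all 3 STING KO libraries. Set against a floor of 3 counts per library, it was counted at least 19-fold lower in STING KO. mt-Tr had 30, 95 and 65 counts in cGAS KO and 4, 0 and 2 in STING KO. No sum with another entry was made for mt-Tg or mt-Tr, so whether their reads were counted elsewhere was not tested. Gm10600, a gene on chromosome 4, had 20, 17 and 23 counts against 0 in all STING KO libraries, at least 7.01-fold lower by the same floor. Intervals and floors cover counting error only. The sources used here do not say how reads with several matches were counted, so reads of mt-Nd3 and Gm28438 cannot be assigned with certainty.

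Other mitochondrial tRNA genes were counted in every STING KO library. mt-Tn, for asparagine, was at 10.9 to 24.5 CPM in cGAS KO against 5.53 to 6.93 CPM in STING KO, without overlap, and mt-Tl1, for leucine, at 10.6 to 34.3 and 6.84 to 15.3 CPM. Over the 13 mitochondrially encoded protein genes, 11 had a negative fold change over 9 libraries (median -0.36) and 12 over 6 (median -0.63), with mt-Nd3 the only one called. Without cGAS KO replicate 3 the median was 0.05 over 9 libraries and -0.20 over 6. It was -0.68 over 9 without cGAS KO replicate 2 and -0.97 over 6 without cGAS KO replicate 1. Over 6 libraries 5 of them, mt-Nd1, mt-Nd2, mt-Nd3, mt-Nd4 and mt-Nd6, were lower at an unadjusted p under 0.05, beside 1.70% of genes tested. mt-Nd1, another complex I subunit, was at 6601, 4081 and 11700 CPM in cGAS KO and at 6050, 3170 and 5256 CPM in STING KO. cGAS KO replicate 3 had the highest level of this list, a summed 91960 CPM against 41930 to 52380 CPM in the other 5 knockout libraries.

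**Figure D4:**
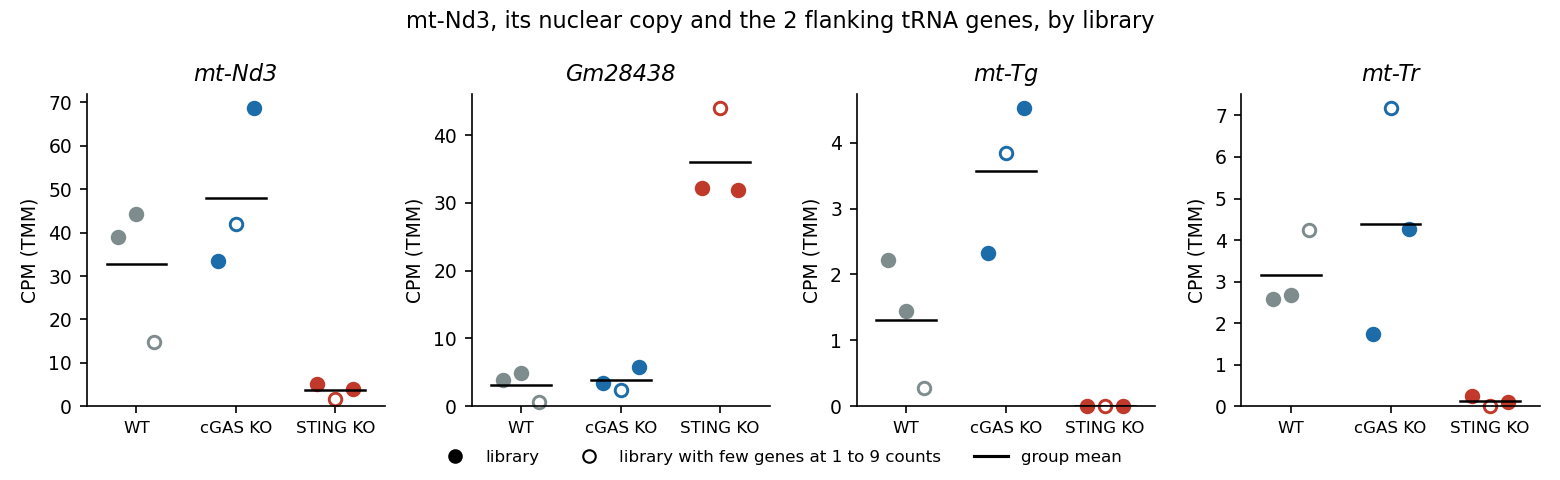
CPM (y axis, TMM-scaled) of mt-Nd3, its nuclear copy Gm28438 and the 2 flanking tRNA genes in each library by group, with open points for the 3 libraries with few genes at 1 to 9 counts and lines for group means. All STING KO points of mt-Nd3, mt-Tg and mt-Tr lie near 0 (at most 5.22, 0 and 0.249 CPM), and those of Gm28438 lie at 31.9 to 44.0 CPM.

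No gene of the pathway that both knockouts interrupt was called, in a design that made few calls at all. Of 27 genes listed for cGAS, STING, their regulators and the steps to interferon, 25 were tested, 0 were called by edgeR in either fit, and the median log2 fold change was -0.07 over 9 libraries and -0.03 over 6. At an unadjusted p under 0.05 were 0 genes over 9 libraries and 1 lower over 6, beside 1.70% of genes tested. This was Enpp1, which degrades extracellular cGAMP, at 7.72, 15.2 and 11.1 CPM in cGAS KO and at 4.48, 10.3 and 6.71 CPM in STING KO. The groups overlapped, and its log2 fold change was -0.75 (SE 0.29) over 6 libraries and -0.66 (SE 0.36) over 9. The most abundant members were Trim32, a ubiquitin ligase that acts on STING, at 159 ± 11.4 CPM in cGAS KO against 141 ± 6.64 CPM in STING KO, and Stim1, a calcium sensor that retains STING in the endoplasmic reticulum, at 144 ± 14.5 and 126 ± 9.49 CPM (SD, n = 3). Ifnb1, interferon beta, and Trex1, the DNase that removes cytosolic DNA, had 0 counts in all 9 libraries. A count of 0 allows up to 3 counts, or 0.168 to 0.226 CPM in the knockout libraries.

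Type I interferon response genes, the main output of the pathway, had a median log2 fold change of 0.10 over 9 libraries and -0.01 over 6, with 31 of 34 genes tested and 0 called by edgeR. At an unadjusted p under 0.05 were 0 over 9 libraries and 1 higher over 6, beside 1.99% of genes tested. This was Xaf1, an apoptosis regulator, with a log2 fold change of 0.76 (SE 0.32) over 6 libraries and 0.43 (SE 0.41) over 9. In 4 genes of the list (Bst2, Ifi27, Irf9 and Oas2) all STING KO libraries lay above all cGAS KO libraries and in 1 (Ifi44) all below, beside 3.63% and 3.72% of genes tested. Stat2, part of the interferon-activated factor ISGF3, was at 26.4 ± 3.80 CPM in cGAS KO against 29.2 ± 1.98 CPM in STING KO. The margins were small for Irf9, the DNA-binding part of ISGF3, at 6.19 to 16.0 CPM in cGAS KO against 16.2 to 18.2 CPM in STING KO, and for Ifi27, at 10.02 to 15.4 and 16.1 to 22.8 CPM. Bst2, which tethers budding virions, was at 1.06 to 2.26 and 2.36 to 2.46 CPM.

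Interferon gamma response genes had a median log2 fold change of 0.19 over 9 libraries and 0.15 over 6 (16 of 19 tested), and MHC class I presentation genes 0.17 and 0.29 (18 and 19 of 20 tested). edgeR called 0 genes of both lists in both fits. No interferon gamma gene had an unadjusted p under 0.05. In each fit 1 MHC class I gene did, higher in STING KO, beside 0.825% of genes tested over 9 libraries and 1.99% over 6. Over 6 libraries that gene was H2-Q6, one of several near-identical class I genes, at 0.131 to 0.464 CPM in cGAS KO and at 0.870, 0.139 and 1.68 CPM in STING KO. Over 9 libraries it was Tap1, the peptide transporter, at 1.66 to 2.69 CPM in cGAS KO and at 3.73, 8.50 and 3.58 CPM in STING KO. STING KO replicate 2 alone set much of that difference, with a log2 fold change of 1.18 (SE 0.49) over 9 libraries and 0.46 (SE 0.40) over 6. Canx, a chaperone of MHC assembly, was at 317 ± 32.0 CPM in cGAS KO against 265 ± 12.4 CPM in STING KO, and Irf8, a myeloid factor, at 8.43 ± 0.83 and 6.97 ± 1.31 CPM. NF-kB and inflammatory genes had a median of 0.13 and 0.25, with 11 of 21 tested over 9 libraries and 12 over 6, and 0 called or at an unadjusted p under 0.05. The direction of some of these medians turned without 1 knockout library. Over 6 libraries they ran from -0.09 to 0.12 for type I interferon and from -0.08 to 0.28 for interferon gamma. Over 9 they ran from -0.03 to 0.15 for type I interferon and from -0.09 to 0.24 for NF-kB. Interferon gamma over 9 (0.09 to 0.32) and NF-kB over 6 (0.19 to 0.29) stayed above 0. MHC class I did not fall below 0, at 0.00 to 0.41 over 9 and 0.12 to 0.38 over 6. Tnf, a main inflammatory cytokine, had 0 counts in all 9 libraries.

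Median fold changes of glial and vascular markers lay below 0, with 0 genes called by edgeR. Microglial markers had a median of -0.21 over 9 libraries and -0.27 over 6, with 13 of 19 negative in both and 4 (Cx3cr1, Fcrls, Olfml3 and P2ry13) lower at an unadjusted p under 0.05 over 6, beside 1.70% of genes tested. Cx3cr1, the fractalkine receptor of microglia, did not overlap, at 63.1 to 98.7 CPM in cGAS KO against 54.4 to 59.2 CPM in STING KO, while WT lay at 55.2 to 60.2 CPM. Microglial list means were low in both replicate 2 libraries, at 3.51 and 3.52 log2 CPM against 4.46 to 4.67 in the other 4 knockout libraries. Oligodendrocyte markers had a median of -0.26 and -0.20, endothelial and mural markers of -0.17 and -0.22 (Mfsd2a, Pdgfrb and Rgs5 lower at an unadjusted p under 0.05 over 6, beside the same 1.70%), and medium spiny neuron markers of -0.10 and -0.15. The oligodendrocyte median over 6 libraries turned to 0.17 without STING KO replicate 1 and was -0.50 without STING KO replicate 3. Without cGAS KO replicate 3 the microglial median over 9 libraries was -0.04 and the endothelial one -0.05.

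Choroid plexus markers turned direction with the replicate 2 libraries. All 13 had a positive fold change over 9 libraries (median 1.89), and 12 of 13 a negative one over 6 (median -1.10). Ttr, the transthyretin of this epithelium, was at 164, 4.15 and 42.0 CPM in cGAS KO and at 51.2, 322 and 35.3 CPM in STING KO. Its fold change was 0.95 over 9 libraries and -0.70 without STING KO replicate 2, the high library, and edgeR called 0 of the 13 in either fit, with 0 at an unadjusted p under 0.05. Cytosolic ribosomal protein genes were all 30 negative over 9 libraries (median -0.19), and 24 of 30 over 6 (median -0.13). Without STING KO replicate 2 the median over 9 was 0.01. Rpl3 was at 483 ± 73.0 CPM in cGAS KO against 339 ± 28.8 CPM in STING KO, a log2 fold change of -0.51 (SE 0.24) over 9 libraries and -0.44 (SE 0.18) over 6.

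**Figure D5:**
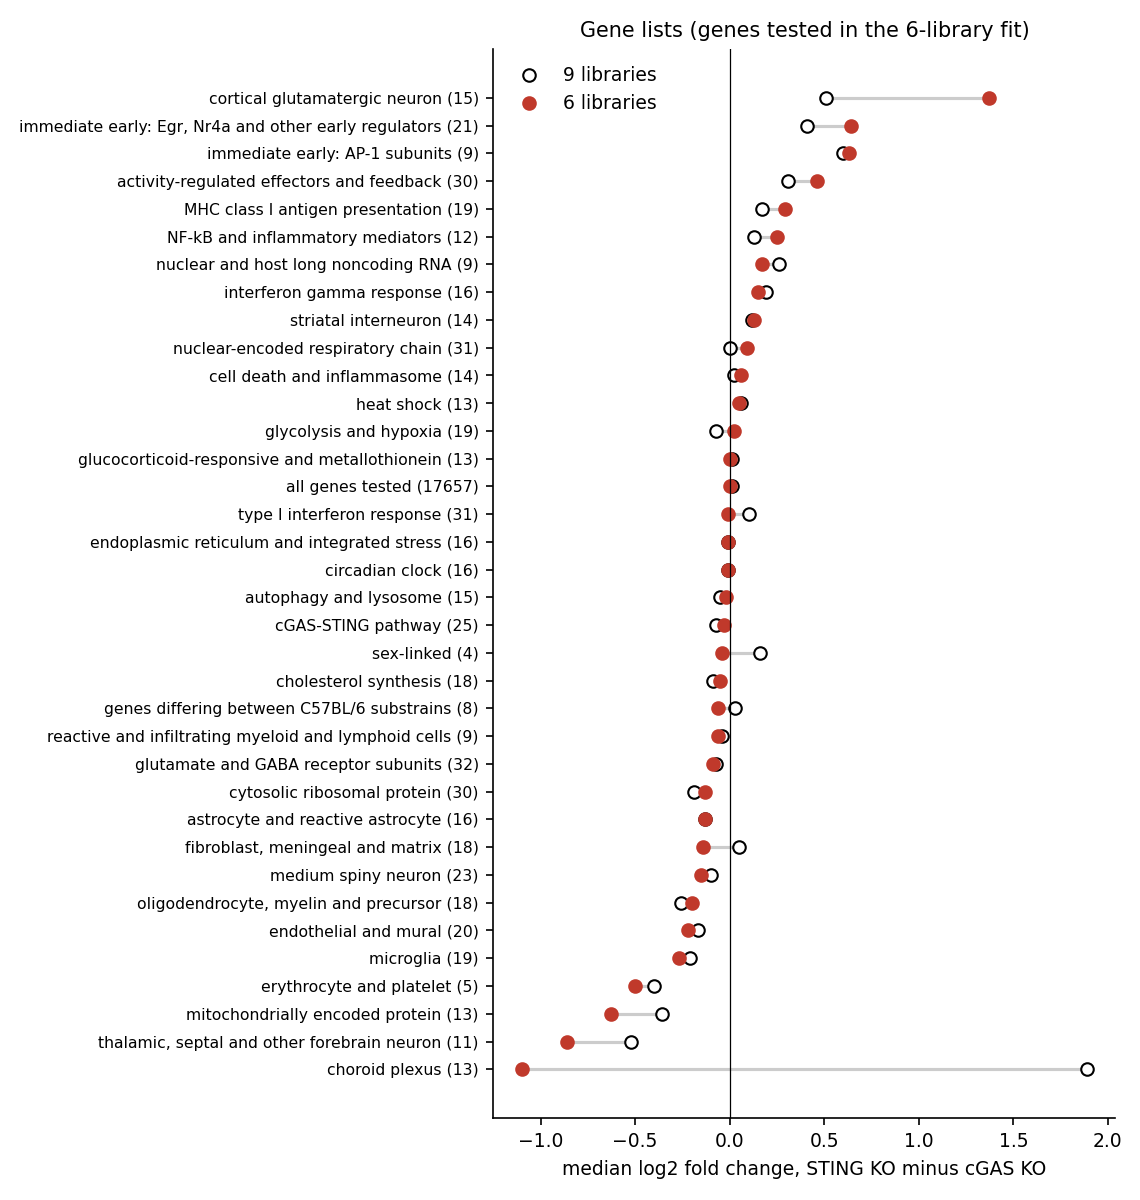
Median log2 fold change (STING KO minus cGAS KO, x axis) of each gene list and of all genes tested, over 9 libraries (open points) and 6 (filled points), with the number of genes tested over 6 libraries in parentheses. The 3 early and activity-regulated lists lie to the right of 0 in both fits, from 0.31 to 0.64, the cortical markers at 0.51 and 1.37, and the choroid plexus markers change sides from 1.89 to -1.10.

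Among other genes with the smallest p-values none was called by edgeR. Slitrk6, a synaptic adhesion protein, was at 6.21, 6.64 and 6.22 CPM in cGAS KO and at 2.86, 2.58 and 2.79 CPM in STING KO, with the WT libraries in between at 3.68 to 4.73 CPM. Its libraries within each knockout were close, replicate 2 included, and the log2 fold change was -1.21 (SE 0.27) over 9 libraries and -1.14 (SE 0.25) over 6 (edgeR adjusted p = 1 and 0.926). Slc18a2, the vesicular monoamine transporter, and Hif3a, a hypoxia-inducible factor subunit, did not overlap either, at 8.71 to 15.8 against 4.23 to 8.29 CPM and at 17.8 to 31.0 against 10.6 to 14.98 CPM. Gpr83, an orphan receptor, was at 142 to 187 CPM in cGAS KO and at 105, 194 and 99.9 CPM in STING KO, with replicate 2 apart from the other libraries of its group.

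On the higher side were Snhg1, a host of small nucleolar RNAs, at 6.96, 1.43 and 2.69 CPM in cGAS KO and at 19.3, 11.9 and 18.95 CPM in STING KO, and Arl4d, a small GTPase, at 24.1, 13.96 and 15.8 CPM and at 52.5, 16.0 and 48.2 CPM. Snhg1 did not overlap, while Arl4d overlapped at STING KO replicate 2. The level of AC149090.1, annotated on a scaffold outside the chromosomes, was 726, 383 and 217 CPM in cGAS KO and 1117, 1411 and 1118 CPM in STING KO, against 176 to 256 CPM in WT. Tmem181b-ps, a transcribed pseudogene, was at 125 to 165 CPM in cGAS KO against 227 to 262 CPM in STING KO. Gm3435 was at 0.655 to 1.81 and 4.10 to 5.58 CPM, also without overlap, and Srp54b, which belongs to a family of near-identical copies, at 0.590 to 0.830 CPM in cGAS KO and at 6.40, 0.349 and 4.92 CPM in STING KO. Counts of pseudogenes and copies are uncertain for the same reason as those of Gm28438.

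Genes near the edited loci were counted because such genes can carry variants linked to an edit. Within 5 Mb of Cgas, 59 genes were tested over 9 libraries and 58 over 6, with 3 (5.08%) and 4 (6.90%) at an unadjusted p under 0.05 in either direction, beside 1.45% and 3.70% of all genes tested. Within 5 Mb of Sting1 the numbers were 5 of 157 (3.18%) and 8 of 158 (5.06%). These shares within 5 Mb lay above those of all genes, and the difference was not tested. Within 1 Mb of Sting1 it was 1 of 36 genes (2.78%) in both fits, below the share of all genes over 6 libraries. Within 1 Mb of Cgas it was 1 of 15 (6.67%) over 9 libraries and 1 of 14 (7.14%) over 6. edgeR called 0 genes in these windows, where it called 0 and 3 genes in all. Egr1 was the only gene within 1 Mb of Sting1 at an unadjusted p under 0.05 over 6 libraries. Of 8 tested genes known to differ between C57BL/6 substrains, 0 were called. In each fit 1 was lower at an unadjusted p under 0.05, beside 0.623% of genes tested over 9 libraries and 1.70% over 6. This was Crb1, a retinal polarity protein, at 1.45, 2.04 and 2.62 CPM in cGAS KO and at 0.746, 0.627 and 0.894 CPM in STING KO.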

How the data were processed

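Gene counts from 9 mouse striatum libraries were used, 1 file of raw counts per library, as deposited by the authors. HISAT2, featureCounts and mm10 are named in the submitters' processing notes. The sources used here give no version, annotation release or strand setting, and no rule for reads that match several places. Of 54532 gene IDs, 54495 matched GENCODE M21 (GRCm38).

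Tests used edgeR 4.0.16 under R 4.3.3 (quasi-likelihood F test, TMM, filterByExpr, group means), over 9 libraries and over 6, with p-values adjusted by Benjamini-Hochberg over all genes tested and a threshold of 0.05. SEs come from the fold change and the F statistic. Alternatives were DESeq2 1.42.0 and limma-voom (limma 3.58.1), other scalings, filters and libraries. Only the edgeR fits over 9 and over 6 libraries, without the count filter, were tried on simulated data beforehand. Promoter and microRNA sequences are from RefSeq (GRCm38.p6). No libraries of the same group agreed within sampling noise. Lists are described by counts and medians, without a set test. The members, the lists and the tests were chosen with earlier results of these data known. Named genes are the targeted genes, mt-Nd3 and Gm28438, up to 15 called genes or else the 10 with the smallest p in each fit and direction, and for each list its called or 2 most abundant members; not all are printed.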

Additional observations from a re-analysis of the deposited data

How the results depend on the processing

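Over 9 libraries edgeR called 0 genes as analysed, with DESeq2 size factors, at least 1 CPM in 3 libraries, only the knockout libraries, 7 libraries with WT replicate 3 kept, an adjusted p under 0.01, and without each knockout library in turn (0 to 0). limma-voom also called 0. The count became 4 with no count filter, 8 with DESeq2, 1 with a covariate for the 3 libraries with few genes at low counts (mt-Nd3, lower) and 29 with limma-voom and library quality weights (16 higher, 13 lower). Over 6 libraries the 3 calls became 198 with no count filter (128 higher, 70 lower), 21 with DESeq2, 0 at an adjusted p under 0.01, 0 with only the knockout libraries, and from 0 to 751 without 1 knockout library. limma-voom called 2, without mt-Nd3. The cause of these changes was not tested.

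Deviations of same-numbered cGAS KO and STING KO libraries correlated at 0.50, 0.47 and 0.06, so the numbers were not taken as pairs. With a replicate block edgeR called 0 genes over 9 libraries and 133 over 6 (110 higher, 23 lower).

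Of the named genes' fold changes under all alternatives, 1863 kept direction and side of the threshold, 147 passed it newly, 10 no longer passed it and 21 reversed. Those 10 were mt-Nd3, Gm28438 and Arc over 6 libraries. Ttr reversed to -1.26 over the 7 libraries, and without 1 library ran from -0.70 to 2.55 over 9 and from -1.93 to 0.04 over 6. Prkcd ran likewise from -1.73 to 0.10 and from -2.41 to 0.10. Zic2 ran from -0.99 to 0.37 and mt-Nd6 from -0.85 to 0.21 over 9 libraries. Rgs4 ran from -0.12 to 0.12 over 9 and from -0.31 to 0.13 over 6, and Homer1 from -0.25 to 0.27 and from -0.16 to 0.29. Homer1 was also 0.01 with limma-voom, 0 with only the knockout libraries, 0 with the replicate block and 0.05 over 7 libraries. Of the list medians, 766 stayed within the spread and 26 moved.

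The number of libraries limits the tests, with 2 a group over 6 libraries and a coefficient of variation of 38.8% over 9, so a gene that was not called is not shown to be alike in both knockouts. STING KO replicate 2 and cGAS KO replicate 2 hold few genes at low counts, so values of low genes there are the least certain.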
